A study of Mus musculus with 8 samples.

Results

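The 10 genes described here mark macrophages and the presentation of antigen on major histocompatibility complex class II. They are the growth factor gene Csf1 and its receptor gene Csf1r, the macrophage genes Adgre1, Cd68, Mrc1 and Cd163, the class II genes Cd74, H2-Ab1 and H2-Aa, and Ptprc, which is made by all white blood cells. They were chosen by name, and each was read from its only probe set with a single gene symbol, so that all 10 were measured among 19938 genes. Whole uteri of 8 female mice were compared, with 1 microarray for each uterus. The 4 controls carried 2 intact copies each of Pgr and Foxa2 (Pgr+/+ Foxa2+/+). The 4 Foxa2-deleted females carried PgrCre/+ Foxa2flox/flox, that is, floxed Foxa2 on both chromosomes and Cre in place at 1 allele of the progesterone receptor gene Pgr. Both groups had been mated with vasectomised wild-type males and were taken on day 3.5 of pseudopregnancy, the plug being counted as day 0.5. The sources used here give neither strain nor exact age. Cre made from the Pgr locus acts in cells that use that gene, and Cre and the missing Pgr allele differed together with Foxa2, so each difference compares these 2 whole genotypes.

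Macrophages are tissue phagocytes that live on colony-stimulating factor 1 (CSF1), which binds the receptor tyrosine kinase CSF1R on their surface. In the mouse uterus CSF1 is known as a product of the epithelium that ovarian steroids control. Class II molecules are pairs of an alpha and a beta chain that show peptides from ingested protein to helper T cells, and the invariant chain CD74 guides them through the cell. Dendritic cells, B cells and many macrophages carry them, and the coactivator CIITA switches their genes on together.

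All values are log2 intensities, so that a difference of 1 is a 2-fold change of intensity, and differences are given as deleted minus control. Foxa2 itself was lower in deleted uteri, at 8.20 to 8.22 against 8.61 to 8.82 in controls, and followed the labels. The 12 uterine genes measured as a check of the tissue had a mean of 11.74 to 11.75 on control arrays and 11.74 to 11.83 on deleted arrays, but single genes moved both ways. The epithelial keratin gene Krt8 rose by 0.93 and Pgr by 0.37, and the endothelial adhesion gene Pecam1 fell by 0.66 (adjusted p = 0.0148, 0.0428 and 0.0077, limma). Array medians lay between 8.25 and 8.32, and 4 arrays a group limit the precision. Deleted uteri varied more than controls in 70.3% of all genes and in 8 of the 10 genes described here. Adgre1 and Cd163 were the exceptions. Among deleted arrays, replicate 1 or replicate 3 was the highest in each of the 10 genes.

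Of the 10 genes, Cd163 rose, Ptprc fell and 8 did not pass an adjusted p of 0.05 (limma, adjusted by Benjamini-Hochberg over all genes). Of all genes tested 4.5% were called higher and 6.58% lower, 11.1% in all, and 2 of 10 genes stands near that background. The median difference of the 10 genes was -0.14, beside 0.01 over all genes. The same 2 genes were those whose groups did not overlap, which happened in 9.55% of all genes with the deleted group above and in 11.6% with it below. The 8 genes not called had standard errors (SE) of 0.13 to 0.31, and their 95% intervals reached from -1.10 for Adgre1 to 0.80 for Cd68. In whole tissue, fewer cells of a type and less RNA per cell cannot be told apart.

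**Figure D1:**
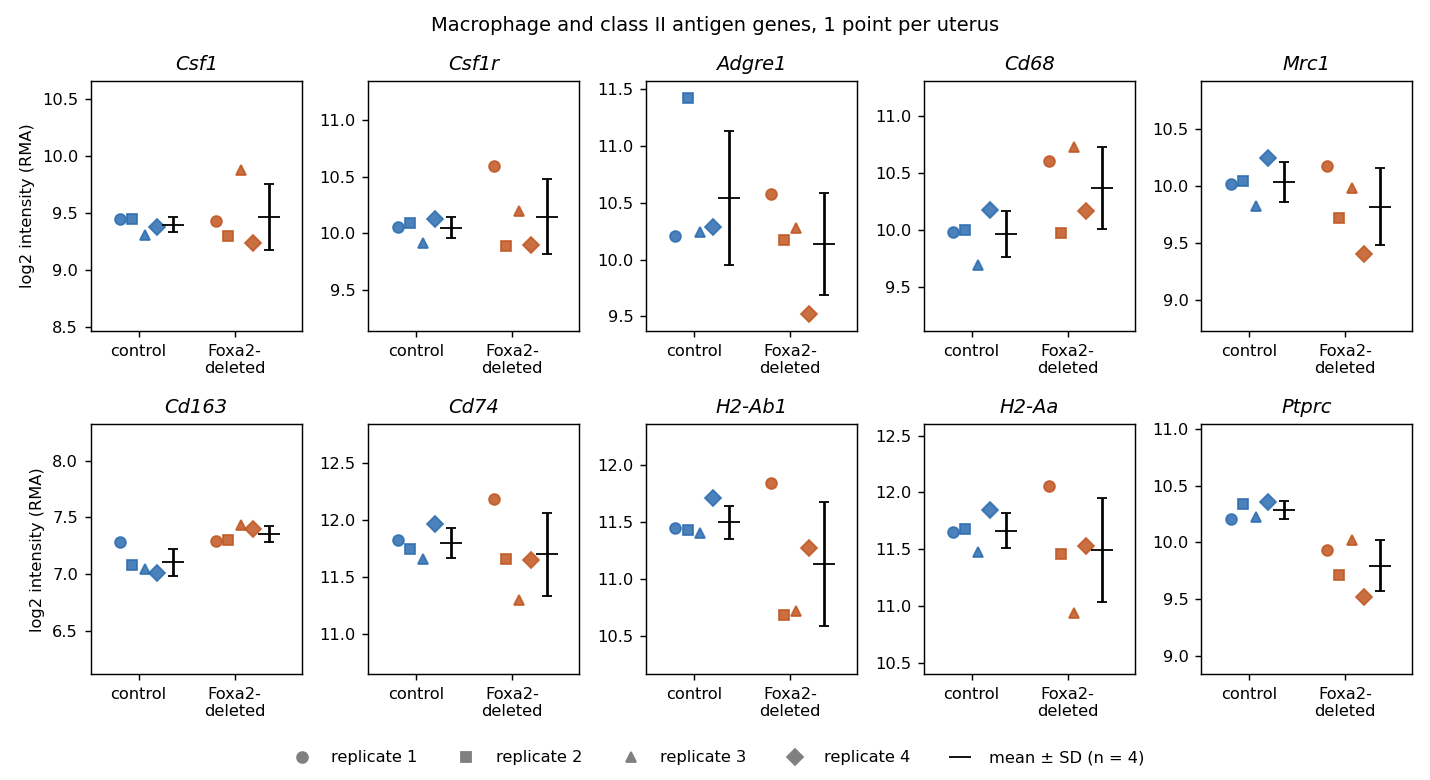
Log2 intensity of each of the 10 genes on the 8 arrays, in panels of equal height (2.2 log2 units), with control uteri in blue, Foxa2-deleted uteri in orange, a marker shape for each replicate number, and the mean ± SD (n = 4) in black. Ptprc is lower in all 4 deleted uteri and Cd163 higher, while the other 8 genes overlap between the genotypes.

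Ptprc (probe set 10358224) encodes CD45, a tyrosine phosphatase on the surface of all white blood cells. It measured 10.21, 10.34, 10.22 and 10.36 in control replicates 1 to 4 and 9.93, 9.71, 10.02 and 9.52 in Foxa2-deleted replicates 1 to 4. Every deleted uterus lay below every control, replicate 4 farthest. The fall was 1.40-fold (log2 difference -0.49, SE 0.10, adjusted p = 0.024, limma). Levels were 10.28 ± 0.08 in controls and 9.80 ± 0.22 in deleted uteri (SD, n = 4 each). Leaving out any 1 control ended the call, with adjusted p from 0.0508 to 0.078. The call held without each deleted uterus in turn, with differences from -0.56 to -0.40. NK cells also make CD45. The 16 NK and T cell genes had a mean of 8.39 to 8.53 in controls and 7.72 to 8.10 in deleted uteri, and the part of such cells in the fall was not tested.

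The other genes common to white blood cells also measured lower on average, but few passed. Of the 16 pan-leukocyte genes, Ptprc included, 3 fell, none rose and 13 did not pass, and all 16 differences were negative, with a median of -0.31. The count of genes that fell was 0 without control replicate 3 or 4, 1 without control replicate 1 or 2, 2 without Foxa2-deleted replicate 1, 2 or 4, and 5 without Foxa2-deleted replicate 3. Cytip, a regulator of leukocyte adhesion, fell by 0.36 (SE 0.08, adjusted p = 0.0231, limma). Cd48, an adhesion molecule that binds the receptor CD244, fell by 0.41 (SE 0.11, adjusted p = 0.0455, limma). Both calls were lost in some other settings, with Cytip kept in 9 and Cd48 in 7 of 10. Cytip no longer passed when control 3, control 4 or deleted uterus 1 was left out (adjusted p up to 0.0723). Cd48 passed only when deleted uterus 1 was the array left out, with adjusted p up to 0.123 otherwise. Foxa2-deleted replicate 4 was the lowest of its group in 14 of the 16 genes, and control replicate 2 the highest of the controls in 13.

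The ligand and receptor that maintain macrophages showed no difference past the threshold. Csf1 (probe set 10501164) measured 9.45, 9.45, 9.31 and 9.38 in control replicates 1 to 4 and 9.43, 9.30, 9.88 and 9.24 in the deleted replicates. Foxa2-deleted replicate 3 stood above all other arrays, and the other deleted uteri lay among or just below the controls. The difference was 0.07 (SE 0.13, adjusted p = 0.750, limma), with an interval from -0.22 to 0.35, and was -0.07 without Foxa2-deleted replicate 3.

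Csf1r (probe set 10456071) measured 10.06, 10.09, 9.92 and 10.13 in controls and 10.59, 9.89, 10.20 and 9.90 in deleted replicates 1 to 4. Deleted replicates 1 and 3 lay above every control and the others just below. The difference was 0.10 (SE 0.15, adjusted p = 0.679, limma), with an interval from -0.23 to 0.42, and was -0.05 without Foxa2-deleted replicate 1. Il34, the other ligand of the same receptor, named after its values were seen, measured 7.78 to 7.92 in controls and 7.66 to 8.10 in deleted uteri.

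Of the 14 genes of the CSF1 axis (both ligands, the receptor, the related colony-stimulating factors and their receptors, and transcription factors and signalling proteins of the lineage), 1 fell, none rose and 13 did not pass. Irf8, a transcription factor of monocytes and dendritic cells, fell by 0.24 (SE 0.06, adjusted p = 0.0295, limma). Its level was 9.97 ± 0.08 in controls and 9.72 ± 0.07 in deleted uteri (SD, n = 4 each). All 4 deleted uteri lay below the controls, and the call ended when control 1, 3 or 4 was omitted (adjusted p up to 0.0915). It also ended under each of the 3 other scalings and with the replicate block (adjusted p up to 0.0667). Spi1, which encodes the myeloid transcription factor PU.1 and was named after its values were seen, overlapped between the groups, with 9.13 to 9.96 in controls and 8.97 to 9.86 in deleted uteri. The signalling adaptor Tyrobp, the GM-CSF receptor gene Csf2ra and the ubiquitin ligase gene Cbl had differences of -0.30, -0.12 and -0.02, none past the threshold. The median of the list was -0.01.

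The genes whose deviations from their group means followed those of Csf1 most closely over the 8 arrays were Kcnf1, Ralb, Stim2, Prss22 and Mall, with Pearson's r from 0.990 to 0.994. For Csf1r they were Flrt2, Prrx1, Man1a, Smim24 and Sulf2, with r from 0.977 to 0.994. These are descriptions over 8 arrays, picked from all genes, and the points share the arrays. In Csf1 they rest mainly on Foxa2-deleted replicate 3, and in Csf1r on Foxa2-deleted replicate 1.

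Of the 4 macrophage genes other than the receptor, Cd163 rose and the others overlapped between the groups. Adgre1 (probe set 10446282) encodes F4/80, the adhesion receptor by which mouse macrophages are commonly recognised. It measured 10.21, 11.42, 10.24 and 10.29 in control replicates 1 to 4 and 10.58, 10.17, 10.28 and 9.52 in the deleted replicates. Control replicate 2 stood far above the rest and Foxa2-deleted replicate 4 below. The difference was -0.40 (SE 0.31, adjusted p = 0.387, limma), and was -0.11 without control replicate 2 and -0.20 without Foxa2-deleted replicate 4.

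Cd68 (probe set 10387536), which encodes a glycoprotein of the macrophage lysosome, measured 9.98, 9.69 and 10.18 in control replicates 1, 3 and 4, lay 0.04 above the control mean of 9.96 in control replicate 2, and measured 10.61, 9.97, 10.73 and 10.17 in deleted replicates 1 to 4. Deleted replicates 1 and 3 lay above every control, and replicates 2 and 4 among them. The difference was 0.41 (SE 0.17, adjusted p = 0.148, limma), with a 95% interval from 0.01 to 0.80 before adjustment. It did not pass with any single array left out, with adjusted p from 0.0508 to 0.312.

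Mrc1 (probe set 10469358), the mannose receptor that clears glycoproteins, measured 10.02, 10.05, 9.83 and 10.25 in controls and 10.18, 9.72, 9.98 and 9.40 in deleted replicates 1 to 4. Foxa2-deleted replicates 2 and 4 lay below every control. The difference was -0.22 (SE 0.16, adjusted p = 0.374, limma), and -0.34 to -0.08 with single arrays left out.

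Cd163 (probe set 10541644), the scavenger receptor for haemoglobin bound to haptoglobin, measured 7.28, 7.08, 7.05 and 7.01 in controls and 7.29, 7.30, 7.43 and 7.40 in deleted replicates 1 to 4. The groups did not overlap, but control replicate 1 came within 0.01 of the lowest deleted uterus. The rise was 1.19-fold (log2 difference 0.25, SE 0.07, adjusted p = 0.0487, limma). On all 8 arrays Cd163 lay below the median of all probe sets, and no detection call comes with these values. The call held without control replicate 1 and was lost on omitting any other single array (adjusted p up to 0.132). It was also lost under quantile normalisation applied again (adjusted p = 0.0785) and under cyclic loess (adjusted p = 0.0834).

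**Figure D2:**
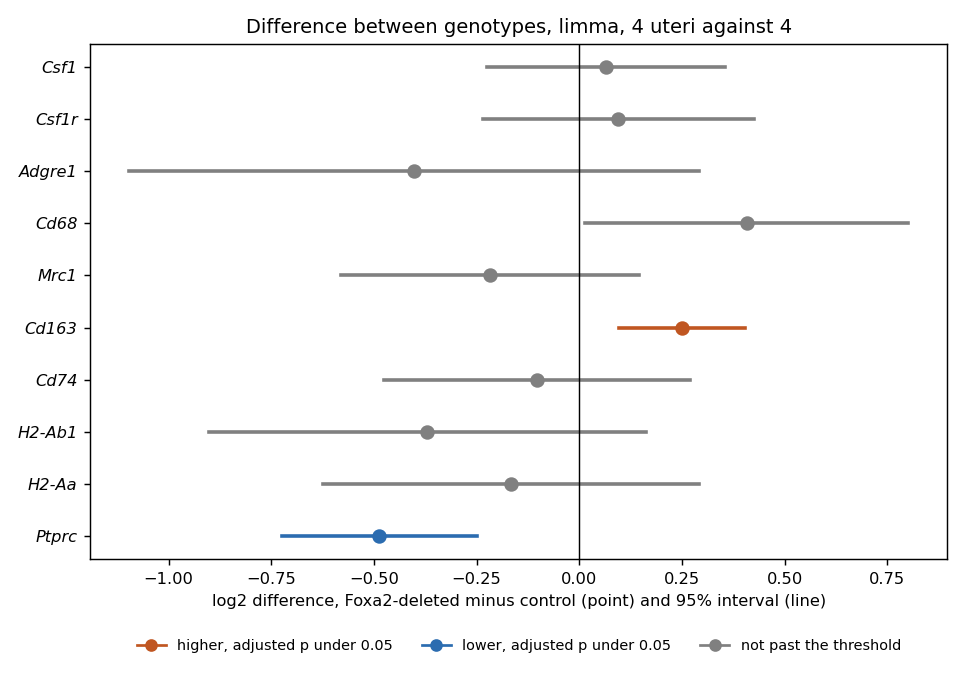
Log2 difference between Foxa2-deleted and control uteri (point) with its 95% interval (line, limma, before adjustment over genes), for the 10 genes. Ptprc at -0.49 and Cd163 at 0.25 passed the adjusted threshold, and the interval of Cd68 starts at 0.01.

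Beyond these genes, the macrophage and monocyte list held few differences past the threshold. Of its 30 measured genes, Cd163 rose, none fell and 29 did not pass, and 15 differences were positive and 15 negative. The median difference was 0.02. Lyz2, the lysozyme gene of myeloid cells, differed by 0.04, the complement gene C1qb by -0.20, the Fc receptor chain gene Fcer1g by -0.24 and the inhibitory receptor gene Sirpa by -0.06, none past the threshold. Averaged over its genes and set against the control mean, the list stood at 0.19 and 0.34 in Foxa2-deleted replicates 1 and 3, and at -0.17 and -0.21 in replicates 2 and 4. Controls ran from -0.16 to 0.16 on the same scale.

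Of 14 genes of resident and perivascular macrophages, 2 rose, none fell and 12 did not pass (median 0.02). Cbr2, a carbonyl reductase gene that epithelial cells of the lung also use, rose 3.04-fold (log2 difference 1.60, SE 0.16, adjusted p = 0.0015, limma). It measured 10.82 ± 0.22 in controls and 12.42 ± 0.32 in deleted uteri (SD, n = 4 each). The lectin gene Cd209b rose by 0.42 (SE 0.07, adjusted p = 0.0123, limma). Cd209b was dim, at 6.88 to 7.11 in controls and 7.32 to 7.55 in deleted uteri, beside array medians of 8.25 to 8.32. The filters on dim genes removed it. Both calls held with each array left out in turn. Of 16 activation and scavenging genes, 2 rose and none fell, with a median difference of 0.14. The deleted uteri lay wholly above the controls in 5 of the 16, beside 9.55% of all genes. The list mean was 7.745 to 7.87 in controls and 8.03 to 8.51 in deleted uteri. The list mean differed by 0.39, and by 0.20 over the 15 genes other than Arg1, which was set aside after its values were seen. The arginase gene Arg1 had a log2 difference of 3.13 (SE 0.41, adjusted p = 0.0048, limma), with 7.11 to 7.26 in controls and 9.48 to 11.63 in deleted uteri. The costimulatory gene Cd80 rose by 0.27 (SE 0.07, adjusted p = 0.0372, limma), but leaving out any 1 control, or replicate 1 or 3 of the deleted uteri, ended that call (adjusted p up to 0.106), which held in 5 of 10 other settings (up to 0.131). Of 11 monocyte chemokine and receptor genes none passed, 6 had positive differences and the median was 0.01. The receptor gene Ccr1 and the fractalkine gene Cx3cl1 had the smallest p, with differences of 0.82 and 0.24 and adjusted p of 0.118 and 0.212 (limma).

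The class II genes did not differ between the genotypes past the threshold, and varied together from one deleted uterus to the next. H2-Ab1 (probe set 10444291), the beta chain of the class II molecule I-A, measured 11.45, 11.43, 11.40 and 11.71 in controls and 11.84, 10.68, 10.72 and 11.27 in Foxa2-deleted replicates 1 to 4. Replicate 1 lay above every control and the other 3 deleted uteri below every control. The difference was -0.37 (SE 0.24, adjusted p = 0.307, limma), with an interval from -0.90 to 0.16. Without Foxa2-deleted replicate 1 it was -0.61 and did not pass (adjusted p = 0.0559). Without replicate 2 or replicate 3 it was -0.22 and -0.23, with adjusted p of 0.540 and 0.535.

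H2-Aa (probe set 10450154), the alpha chain of I-A, measured 11.65, 11.68, 11.48 and 11.85 in controls and 12.06, 11.46, 10.94 and 11.53 in deleted replicates 1 to 4. Replicate 1 was again above all controls, and replicates 2 and 3 were below them. The difference was -0.17 (SE 0.20, adjusted p = 0.593, limma) and 0.02 without Foxa2-deleted replicate 3. Cd74 (probe set 10456005) measured 11.83, 11.75, 11.66 and 11.97 in controls and 12.19, 11.66, 11.30 and 11.65 in deleted replicates 1 to 4. It had the same array at the top and the same at the bottom. The difference was -0.10 (SE 0.16, adjusted p = 0.693, limma) and 0.03 without Foxa2-deleted replicate 3.

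Over the 8 arrays, the deviations of H2-Ab1, H2-Aa and Cd74 from their group means correlated with each other at r of 0.865 to 0.983. With those of Ptprc they correlated at -0.08 to 0.06. H2-Eb1, the beta chain of the class II molecule I-E, which was picked out after its values were seen, correlated with the 3 genes at 0.949 to 0.966. It measured 11.09 to 11.37 in controls and 11.62, 10.66, 10.37 and 11.04 in deleted replicates 1 to 4. H2-Ea, the alpha chain gene of I-E, was named after its values were seen. H2-Ea was far dimmer, at 6.36 to 6.47 in controls and 6.46 to 6.93 in deleted uteri. Also picked out in that way, the class II gene H2-DMa correlated with the 3 genes at 0.747 to 0.824 and Ciita at 0.636 to 0.832. The factor genes Rfx5 and Nfyb, likewise picked, did so at 0.071 to 0.322 and at 0.314 to 0.485. The points share the arrays and rest mainly on Foxa2-deleted replicates 1, 2 and 3. Icos, a costimulatory receptor gene of T cells, followed H2-Ab1 most closely of all genes (r = 0.993), ahead of Tcea3, Galnt15, Adamtsl1 and Fbxo6 (r of 0.970 to 0.985).

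**Figure D3:**
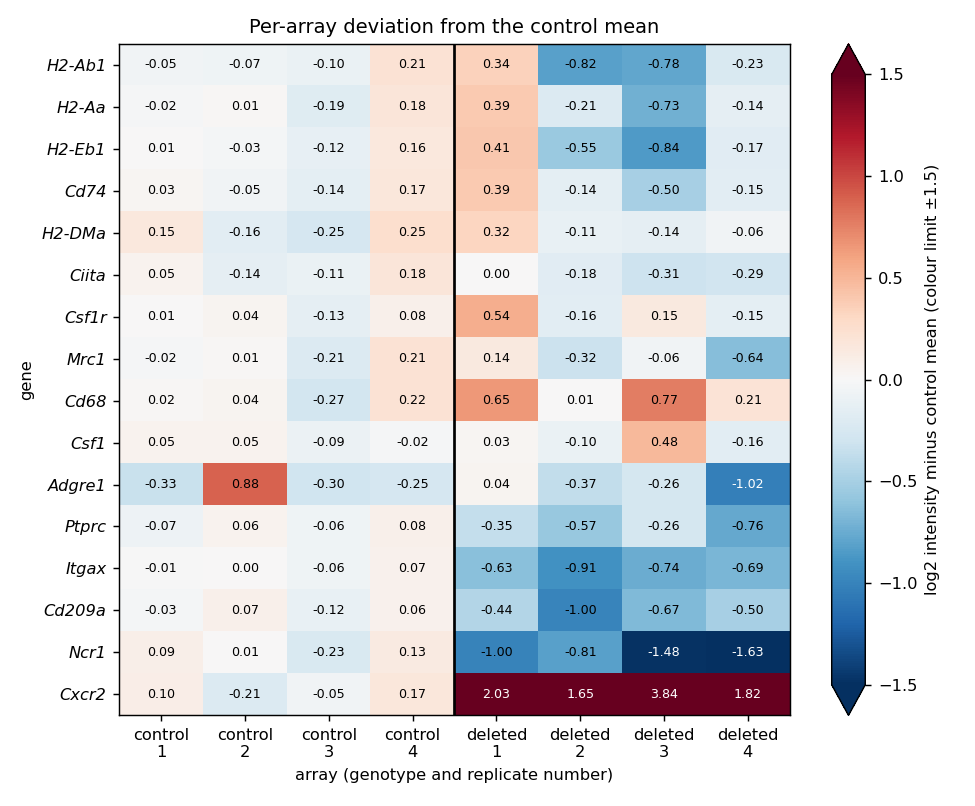
Log2 intensity minus the control mean of each gene on each array, printed in the cells and coloured up to ±1.5, for class II genes, genes of macrophages and Ptprc, and markers of dendritic (Itgax, Cd209a), natural killer (Ncr1) and neutrophil (Cxcr2) cells. In Foxa2-deleted uteri H2-Aa, H2-Eb1 and Cd74 run from 0.39 to 0.41 in replicate 1 and are lowest in replicate 3, H2-Ab1 is lowest in replicate 2, and Ciita is at 0.00 in replicate 1, while Ptprc and Itgax are lower in all 4 deleted uteri.

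The stretch before the start of transcription is shown for H2-Aa and H2-Eb1, from RefSeq on GRCm38.p6. Its part in the common variation of the class II genes was not tested. Class II promoters are known for a short Y box bound by NF-Y and an X box bound by RFX factors a little farther from the start. Of the 10 genes, 6 matched the promoter table used, H2-Aa among them. The 120 bases that end just before the start are given, with the letters CTGATTGG of the Y box core and the letters GCAACT in capitals. H2-Aa lies at chr17:34287824-34287943 on the minus strand and H2-Eb1 at chr17:34305747-34305866 on the plus strand.
H2-Aa: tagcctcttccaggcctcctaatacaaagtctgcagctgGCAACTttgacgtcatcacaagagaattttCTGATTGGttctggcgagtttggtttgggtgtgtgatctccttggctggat
H2-Eb1: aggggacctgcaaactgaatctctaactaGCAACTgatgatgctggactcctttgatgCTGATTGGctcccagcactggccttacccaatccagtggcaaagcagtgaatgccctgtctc
The Y box letters began 51 bases before the start in H2-Aa and 62 in H2-Eb1, and GCAACT began 81 and 91 bases before it, which left 24 and 23 bases between them. The letters GCAACT were picked after reading these 2 sequences. Searched on both strands in the 250 bases before the start, CTGATTGG was found in 3.83% and GCAACT in 9.01% of 32851 promoters, and both in the gene's own direction in 0.0883%. CTGATTGG was also present before H2-Oa but not in that window of the class II genes H2-DMa and H2-Ob, nor of Csf1, Cd68, Mrc1, Cd163 or Ptprc. GCAACT was absent from that window in all of these genes, H2-Oa included. These are matches of letters and say nothing of binding in these uteri.

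Of the 23 class II presentation genes measured, 1 rose, 1 fell and 21 did not pass, and 16 differences were negative (median -0.10). Ctsl, which encodes the lysosomal protease cathepsin L, rose by 0.55 (SE 0.14, adjusted p = 0.0429, limma). Lgmn, which encodes the asparaginyl endopeptidase legumain, fell by 0.39 (SE 0.11, adjusted p = 0.0483, limma). Both calls ended without any 1 control. That of Ctsl also ended without deleted uterus 1 or 3 (adjusted p up to 0.118), and that of Lgmn without deleted uterus 1, 2 or 4 (up to 0.119). In 11 other settings Ctsl was called in 9 and Lgmn in 8. Ciita, named after its values were seen, had a difference of -0.19 (SE 0.09, adjusted p = 0.193, limma), with 8.36 to 8.68 in controls and 8.19 to 8.50 in deleted uteri. The deleted uteri lay wholly below the controls in 5 of the 23 genes, beside 11.6% of all genes. They were Lgmn and, named after their values were seen, H2-Oa and H2-Ob (a pair that restrains peptide loading), the X box factor gene Rfx5 and the Y box factor gene Nfyb. The differences of the last 4 were -0.23, -0.43, -0.26 and -0.15, with adjusted p from 0.0537 to 0.0784 (limma).

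Markers of the other cells that carry class II or CD45 did not move as one, and their part in the results above was not tested. Of 12 dendritic cell markers, 3 fell, 2 rose and 7 did not pass (median -0.09). Itgax, which encodes the integrin CD11c, fell 1.67-fold (log2 difference -0.74, SE 0.07, adjusted p = 7.9e-04, limma). It measured 8.95, 8.96, 8.90 and 9.03 in controls and 8.33, 8.05, 8.22 and 8.27 in deleted replicates 1 to 4. The groups were far apart for the spread within them, and the call held without each array in turn. Cd209a, a lectin gene of monocyte-derived dendritic cells, fell by 0.65 (SE 0.12, adjusted p = 0.0147, limma), and omitting control replicate 2 or 4 ended that call (adjusted p up to 0.0521). Flt3, the receptor for the dendritic cell growth factor FLT3L, named after its values were seen, fell by 0.21 (SE 0.06, adjusted p = 0.0466, limma), a call kept without Foxa2-deleted replicate 2 alone when single arrays were left out, and in 6 of 10 other settings. The 2 that rose were Cd24a, a surface glycoprotein gene that epithelial cells also use, by 0.69 (SE 0.13), and Siglech, a marker of plasmacytoid dendritic cells, by 0.28 (SE 0.06). The call of Cd24a was lost without control replicate 4 (adjusted p = 0.0553) and that of Siglech without any of 5 single arrays (up to 0.0968, limma).

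Of 8 B cell markers none passed, 4 had positive differences and 4 negative, and the mean of the list lay from 7.11 to 7.36 on control arrays and from 7.18 to 7.28 on deleted arrays. The smallest p were those of the kinase gene Blk and the complement receptor gene Cr2, with differences of 0.14 and 0.08 (adjusted p = 0.247 and 0.314, limma). Among 16 genes of NK and T cells, 10 were called lower, none higher and 6 neither, with 6 called lower without control replicate 4. The mean of that list was 8.39 to 8.53 in controls and 7.72 to 8.10 in deleted uteri, with no overlap. The NK receptor gene Ncr1 fell by 1.23 (SE 0.18, adjusted p = 0.0069, limma), and the receptor genes Klrb1c and Klrk1 and the transcription factor gene Eomes fell by 1.17, 0.85 and 0.84 (adjusted p = 3.8e-04, 0.0038 and 0.0097). All 4 calls held without each array in turn. The T cell receptor component gene Cd3e, named after its values were seen, differed by 0.17 (adjusted p = 0.263, limma). The T cell genes Cd3d, Cd3g, Cd4, Cd8a and Cd8b1, also named after their values were seen, differed by 0.01, -0.08, 0.19, 0.155 and 0.32. None of these T cell genes passed the threshold. Of 12 neutrophil markers 3 rose, none fell and 9 did not pass, and the mean of the list was 7.25 to 7.46 in controls and 8.11 to 8.91 in deleted uteri. Lcn2, which encodes the iron-binding protein lipocalin 2 and is also made by epithelial cells, had a log2 difference of 4.25 (SE 0.12, adjusted p = 4.5e-07, limma), and its call held without each array in turn. The list mean differed by 0.96, and by 0.67 over the 11 genes other than Lcn2, which was set aside after its values were seen. The median difference of the list was 0.60, and 0.27 without Lcn2. The neutrophil surface gene Ly6g rose by 1.21 (SE 0.25, adjusted p = 0.0212, limma), a call that 5 of the 8 single omissions ended (up to 0.066). The chemokine receptor gene Cxcr2 had a log2 difference of 2.33 (SE 0.43, adjusted p = 0.0154, limma), and omitting control replicate 2 or 3 ended that call (adjusted p up to 0.0539). The 3 neutrophil calls became 1 without either of those controls, 2 when control 1, control 4 or deleted uterus 1 was left out, 4 without Foxa2-deleted replicate 2, and 6 without Foxa2-deleted replicate 3. Foxa2-deleted replicate 3 was the highest in the neutrophil list mean, as it was in Cd68 and Csf1 above. Neutrophils and NK cells also make CD45.

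**Figure D4:**
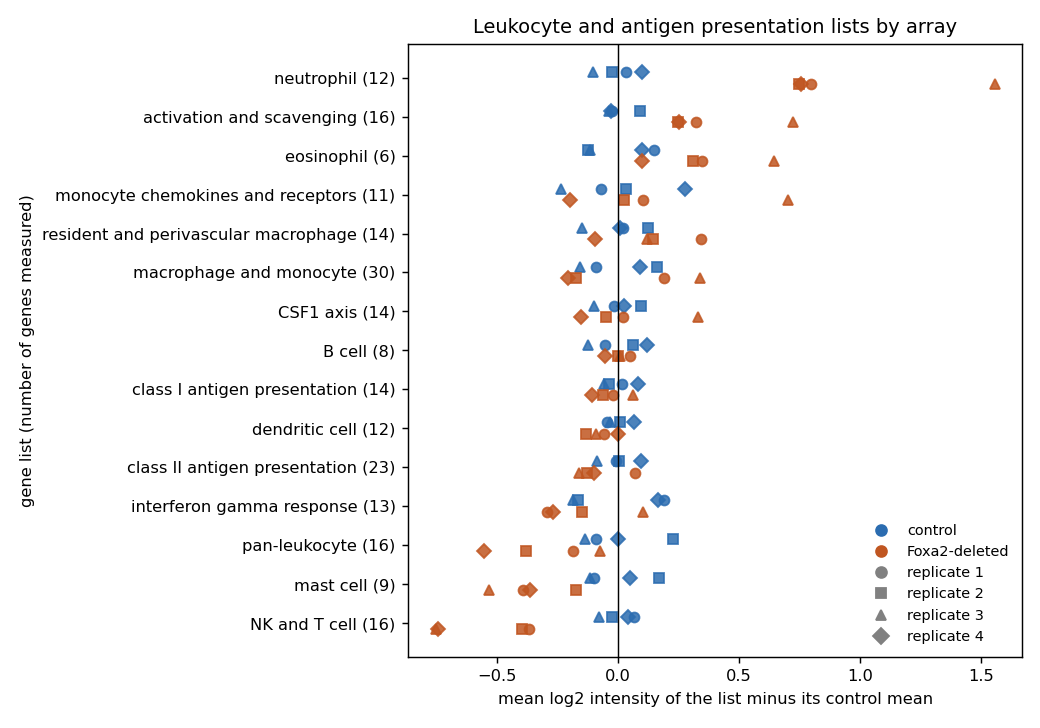
Mean log2 intensity of each gene list minus its control mean, 1 point per array, with control uteri in blue, Foxa2-deleted uteri in orange and a marker shape for each replicate number. The neutrophil list and the activation and scavenging list are higher in all 4 deleted uteri than in any control. The NK and T cell list and the mast cell list are lower in all 4. The pan-leukocyte list overlaps through the 2 genotypes' nearest arrays, and the macrophage and class II lists lie on both sides of 0.

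Within arrays, 4 differences between pairs of the 10 genes were compared between the genotypes by two-sided exact permutation over 70 divisions of the arrays, for which the smallest possible p is 0.0286. Cd68 minus Adgre1 was -0.58 ± 0.59 in controls and 0.23 ± 0.39 in deleted uteri (SD, n = 4 each; exact p = 0.0571, adjusted over the 4 comparisons 0.229). Without control replicate 2, which was high in Adgre1, the difference between genotypes went from 0.81 to 0.53. Cd74 minus Ptprc was 1.52 ± 0.11 in controls and 1.91 ± 0.44 in deleted uteri (SD, n = 4 each; exact p = 0.171, adjusted 0.343). H2-Ab1 minus Ptprc differed by 0.12 and Csf1 minus Csf1r by -0.03 between the genotypes (exact p = 0.686 and 0.886, adjusted 0.886 for both). With 4 comparisons adjusted together, a pair that alone reached the smallest possible p could not have passed 0.05. None reached it, and these values are a description.

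Among the 4 macrophage genes Csf1r, Adgre1, Cd68 and Mrc1, deviations from the group means correlated at r of 0.353 to 0.879 over the 8 arrays. With Ptprc these 4 correlated at 0.631 to 0.887. Cd163 correlated with those 4 genes at -0.28 to 0.12 and with Ptprc at -0.18. The 3 class II genes, at -0.08 to 0.06 with Ptprc, correlated with Csf1r at 0.526 to 0.691. With Mrc1 they correlated at 0.33 to 0.45, with Cd68 at 0.06 to 0.35 and with Adgre1 at 0.07 to 0.16. With Cd163 they did so at -0.42 to -0.29. These correlations are a description over 8 arrays, and were not computed again with single arrays left out.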

How the data were processed

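The authors' deposited values are RMA log2 intensities for every probe set on each array, from 150 ng of total RNA per uterus, per the submitters' processing notes and the labels' protocols, and the notes also name limma. Versions and the genome build behind them are not given. RMA draws dim probe sets to a floor, which shrinks their changes. Of 35556 probe sets, 21789 had 1 gene symbol in GEO's platform annotation, 1621 several and 12146 none. The probe set with the highest mean stood for each gene, which gave 19938 genes. Entrez identifiers of 21698 probe sets matched a GRCm38.p6 gene table.

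Genotypes were compared with lmFit and eBayes (limma 3.58.1, R 4.3.3) without covariates, with Benjamini-Hochberg adjustment over all genes and a threshold of 0.05. The steps were tested on simulated data. The labels call the replicates biological. Alternatives were 3 scalings, 2 filters on dim genes, 3 treatments of probe sets, the replicate number as a block, array weights, a mean-variance trend, and each array left out. Scan dates were not used here, so batches are unknown. The genes and the 16 lists were chosen with earlier results of these data known. From each list the text names up to 4 called genes, taken by adjusted p, or where none passed the 2 genes of lowest p, beside bright genes of the 3 main lists and the 5 genes most alike to Csf1, Csf1r and H2-Ab1 in deviations from group means. Names outside this rule are marked, or are used as plain checks.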

Additional observations from a re-analysis of the deposited data

Results flagged for a closer look

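In a group of 4 arrays, an array was singled out where its gap to the nearest other array exceeded Dixon's 95% critical share of the group's range. Of 192 groups tested (96 genes, list means or differences, in both genotypes) 8 met this, or 4.17%, where chance gives about 1 in 20. Adgre1 was 11.42 in control replicate 2, with 10.29 the nearest control. H2-Ab1 was 11.71 in control replicate 4, with 11.45 the nearest. Cbl was 10.35 in control replicate 4 against 10.41 in each of the other controls. Foxa2-deleted replicate 3 was singled out in Ccr1 at 8.54 (nearest 7.23), in the granulocyte growth factor receptor gene Csf3r, named for this reason, at 10.49 (nearest 9.13), in the mean of the neutrophil list at 8.91 (nearest 8.15) and in the mean of the activation and scavenging list at 8.51 (nearest 8.10). The activation and scavenging mean was also singled out in control replicate 2, at 7.87 (nearest 7.76).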

How the results depend on the processing

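Under 11 other settings and with each of 8 arrays left out, no gene of the 10 other than Cd163 and Ptprc passed the threshold. These values come with no measure of signal over background. The replicate numbers did not pair the samples (r of the deviations of same-numbered arrays from -0.05 to 0.06 over all genes). With the replicate block no gene of the 10 was called, with Ptprc at -0.49 (adjusted p = 0.0675, limma) and Cd163 at 0.25 (adjusted p = 0.106), and 1062 genes of all were called, 435 higher and 627 lower, against 2209, 898 and 1311. Cd163 was 0.20 with quantile normalisation applied again, 0.20 under cyclic loess and 0.25 with all probe sets tested, not called in any, and was removed with the dim genes, so that 0 of the 10 were then called higher. With single arrays left out its difference was 0.22 to 0.31, that of Ptprc -0.56 to -0.40, and 0 to 1 genes were called in each direction. Differences of either sign were seen for Csf1 (-0.074 to 0.14), Csf1r (-0.053 to 0.18), Cd74 (-0.27 to 0.031), H2-Aa (-0.36 to 0.018), H2-Ab1 minus Ptprc (-0.075 to 0.33) and Csf1 minus Csf1r (-0.15 to 0.13). Genes called over all ran from 556 to 3059 (196 to 1374 higher, 348 to 1777 lower) with single arrays left out, falling to 556 to 1111 without any 1 control or Foxa2-deleted replicate 1 and rising to 3059 without Foxa2-deleted replicate 4. Centring on array medians split the calls into 1082 higher and 982 lower. With the lower 50% of genes left out 533 were higher, and with array weights 1351. List medians shifted with the dimmest 50% left out, to 0.019 for dendritic cells (2 genes left), -1.13 for NK and T cells, 1.04 for neutrophils, -0.96 for mast cells and 0.97 for eosinophils. With 25% left out they were -0.60 for mast cells and 0.039 for B cells. The B cell median was -0.061 under repeated quantile normalisation and under cyclic loess, -0.030 to 0.053 with single arrays left out, and had no value with the dimmest 50% left out, where none of its genes remained. Fewer genes of each list remained under these filters.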

Other observations

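Genes of class I presentation, which shows peptides from inside the cell to killer T cells, held 1 call among 14 measured. Erap1, an aminopeptidase that trims those peptides, fell by 0.21 (SE 0.05, adjusted p = 0.0393, limma), a call lost without any of 5 single arrays (adjusted p up to 0.114) and kept in 6 of 11 other settings. The shared light chain gene B2m was level to within its error, at 12.97 ± 0.07 in controls and 12.97 ± 0.09 in deleted uteri (SD, n = 4 each). Of 13 genes of the interferon gamma response, a pathway known to raise class II through CIITA, 2 fell and none rose. The kinase gene Jak2 fell by 0.53 (SE 0.07, adjusted p = 0.0064, limma) and kept its call without each array in turn. Jak1 fell by 0.33 (adjusted p = 0.0414, limma), a call held without Foxa2-deleted replicate 2 alone when single arrays were left out, and in 8 of 11 other settings.

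The eosinophil and mast cell lists held 1 call each. Of 6 eosinophil genes the eosinophil chemokine gene Ccl11 rose by 1.81 (SE 0.24, adjusted p = 0.0049, limma), and of 9 mast cell genes Kit, a receptor that other cells of the uterus also make, fell by 0.96 (SE 0.20, adjusted p = 0.0231, limma). Omitting any 1 control ended the call of Kit (adjusted p up to 0.0745).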
